A study of Rattus norvegicus with 98 samples.

Results

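The cingulate cortex (CGC) of rats given fluoxetine was compared with that of rats given water, using the H3K27ac peak lists of 4 chromatin immunoprecipitation and sequencing (ChIP-seq) libraries chosen by their titles from the 94 libraries of the series: Sham replicates 1 and 2 and FT replicates 1 and 2. The animals were male Long-Evans rats, 2 months old at the start. For 6 weeks the FT group drank water with fluoxetine, at 18 mg/kg body weight per day, and the Sham group drank plain water. The labels name no other treatment and no genetic change. CGC was micropunched from frozen sections, and punches of several animals were pooled for each replicate, so that a replicate is a pool and the spread between animals was not measured. The same animals supplied every region of a replicate.

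H3K27ac, acetylation of lysine 27 of histone H3, marks active promoters and enhancers, and the length of DNA it covers differs between a small enhancer and a broad domain. CGC is a midline part of the frontal cortex that takes part in mood, pain and attention, and it receives serotonin fibres from the raphe nuclei. Fluoxetine blocks the serotonin transporter, and its clinical effect on mood builds up over weeks. The question of the comparison was which places in CGC gained or lost the mark after 6 weeks of the drug. The lists give positions on the rat build Rn5 without gene names, so places are given by position, and the tissue label could not be checked against marker genes. As a check of another kind, the occupied windows of the CGC libraries were compared with those of every other region on lists of 19378 peaks, the shortest list of the series. The insular cortex libraries were the most like them, with a mean Jaccard index (shared windows over windows of either list) of 0.708 and a range of 0.651 to 0.750 over 16 pairs, and the ventral dentate gyrus (venDG) followed at 0.606. The prelimbic and infralimbic cortex had lower means, 0.567 and 0.574, with wide ranges, 0.302 to 0.715 and 0.307 to 0.693. Their closest pairs lay above the highest venDG value of 0.634, so the order of means is not that of the closest pairs.

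The FT lists were longer and covered more of the genome. Sham replicates 1 and 2 held 40597 and 42094 peaks, and FT replicates 1 and 2 held 51027 and 49403 peaks. Covered length was 59.5 and 64.7 Mb in the Sham libraries and 83.6 and 77.1 Mb in the FT libraries. In both measures the 2 FT libraries stood above the 2 Sham libraries without overlap. The FT mean was 1.21-fold the Sham mean for peaks (50215 ± 1148 against 41346 ± 1059, SD, n = 2; log2 ratio 0.28, with an SD between replicates of 0.04 on that scale) and 1.29-fold for covered length (80.38 ± 4.57 against 62.09 ± 3.67 Mb, SD, n = 2). The exact two-sided permutation p was 0.33 in each case, which is the smallest value that 2 libraries against 2 allow, so no measure taken once per library could pass a threshold of 0.05. The lists hold no read counts, so depth is unknown. More acetylation, deeper sequencing and better enrichment in the FT libraries cannot be told apart from the length of a list. The same holds for the width of its peaks.

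Peaks were also wider in FT. Median peak width was 1400 and 1500 bp in the Sham libraries and 1600 bp in both FT libraries. Wide peaks, here those of at least 3 kb, numbered 312 and 427 in Sham and 771 and 633 in FT, a 1.90-fold difference of the means, and the longest single peak measured 5300, 6000, 6800 and 5400 bp in Sham 1, Sham 2, FT 1 and FT 2. The Norm-tag-count, the authors' normalised tag count per peak in whole numbers, had a median of 4 in both Sham libraries and of 5 and 4 in FT replicates 1 and 2.

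Cutting each list by maxScore, the peak caller's highest score within a peak, to the 40597 best peaks gave lists of equal size. The cut removed the weakest peaks of the longer lists, and it widened the difference in width. Mean width was 1465 and 1567 bp in Sham and 1820 and 1723 bp in FT, and the means differed 1.17-fold (1771 ± 68.7 against 1516 ± 71.9 bp, SD, n = 2; exact permutation p = 0.33). Covered length at equal peak number was 59.5 and 63.6 Mb against 73.9 and 69.9 Mb. The same number of peaks therefore covered more bases in each FT library than in either Sham library. The lowest maxScore left in the lists was 47.2 and 49.8 in Sham and 79.6 and 62.6 in FT, so the weakest peaks kept were not of equal score.

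At equal rank by maxScore the difference in width was larger in the lower ranks. Equal rank is not equal score, since the lists differ in length and in lowest score, and ranks 35001 to 40000 lie near the end of the Sham lists and farther from the end of the FT lists. Among the 5000 best peaks of each list, mean width was 2139 and 2275 bp in Sham and 2371 and 2314 bp in FT. At ranks 20001 to 25000 it was 1391 and 1488 bp against 1759 and 1667 bp, and at ranks 35001 to 40000 it was 785 and 883 bp against 1256 and 1119 bp. FT lay above Sham in all 8 rank bins, and the order within a treatment was also the same in all of them, with Sham 2 above Sham 1 and FT 1 above FT 2.

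**Figure D1:**
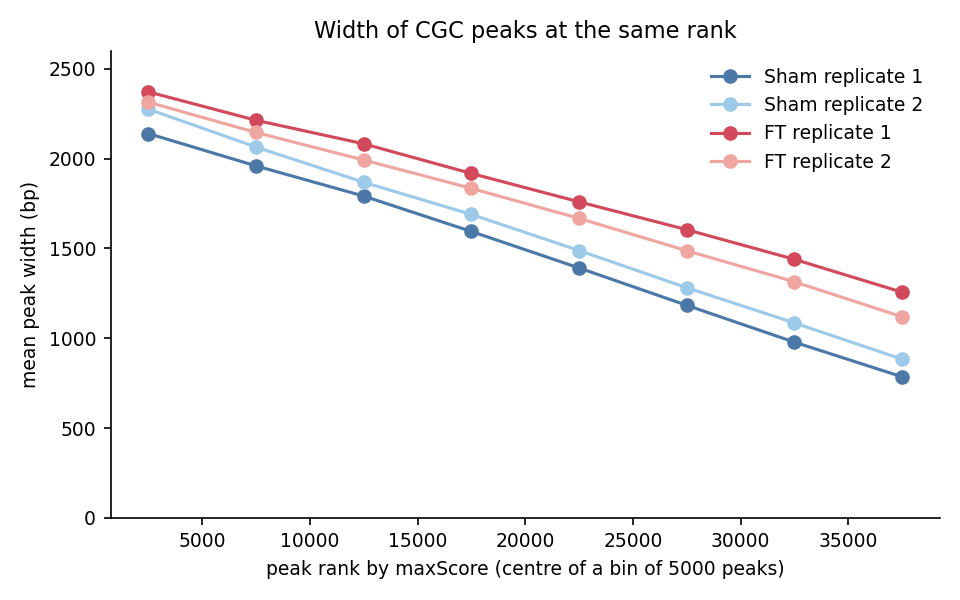
Mean peak width in bp (y axis) against peak rank by maxScore in bins of 5000 peaks (x axis), with a line for each of the 4 CGC libraries. The FT lines lie above the Sham lines in every bin, from 2371 and 2314 against 2139 and 2275 bp among the best peaks to 1256 and 1119 against 785 and 883 bp at ranks 35001 to 40000.

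To compare places, the genome was divided into 1 kb windows, and a window was called occupied in a library when its peaks covered at least 50% of it. A window held by both FT libraries and by neither Sham library is called FT-only, and the reverse Sham-only. With 4 libraries there are 3 ways to set 2 against 2, and the other 2 ways, by replicate number and crossed, show how many windows separate pairs that do not differ in treatment. On full lists 100256 windows were occupied in any CGC library and 46008 in all 4. FT-only windows numbered 8407 (8.39% of those occupied) and Sham-only windows 486 (0.485%). The replicate split separated 3052 windows (3.04%), 1683 held by replicate 1 (1.68%) and 1369 by replicate 2 (1.37%). The crossed split separated 3899 (3.89%), 925 held by Sham 1 and FT 2 (0.923%) and 2974 by Sham 2 and FT 1 (2.97%). The treatment split thus separated 2.56-fold as many windows as the mean of the other splits (log2 1.36), and 94.5% of them lay on the FT side.

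With lists of equal size the excess was smaller and still mostly on the FT side. FT-only windows numbered 5642 (6.11% of 92296 occupied) and Sham-only windows 925, together 7.12%. The replicate split separated 3037 windows (3.29%) and the crossed split 3635 (3.94%). The treatment split was 1.97-fold the mean of the other splits (log2 0.98), and 85.9% of its windows were FT-only. Of the 5642 FT-only windows, 5544 (98.3%) were also FT-only on full lists. Of the 925 Sham-only windows, 466 (50.4%) were also Sham-only there. On the sides of the other splits the kept share ran from 59.4% to 83.6%. The cut left the Sham 1 list whole and took more peaks from the FT lists than from Sham 2. Full lists can therefore undo Sham-only windows more readily than FT-only ones, and these shares are not on equal terms. In the crossed split, too, the sides were unequal, with 2529 windows (2.74%) held by Sham 2 and FT 1, each the library of its treatment with more covered bases, and 1106 (1.20%) by Sham 1 and FT 2.

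The number of windows that separated the treatments and their direction behaved differently under other ways of handling peak width. When each list was cut to the same covered length (59.5 Mb, that of the shortest list), FT-only and Sham-only windows numbered 3143 (3.81%) and 2533 (3.07%), so the FT share was 55.4%. The treatment split was 2.01-fold the mean of the others, which separated 2456 (2.98%) and 3198 windows (3.88%). Since FT peaks were wider, this cut kept fewer of them, and a difference in width became one in peak number. The 2.01-fold therefore cannot be read apart from width. When each peak of the equal-size lists was reduced to the window of its centre, FT-only and Sham-only windows numbered 2371 (3.66%) and 1689 (2.61%), and the treatment split of 4060 windows (6.27%) was 1.13-fold the mean of the replicate split (3415, 5.27%) and the crossed split (3786, 5.84%). Counted by peak centres, the treatment split thus separated little more than the splits that do not follow treatment. A small shift of a peak can move its centre to the next window in any split. Windows held by all 4 libraries made up 33.8% by peak centres and 48.5% on equal-size lists. Overlapping peaks matched between libraries, described below, gave a log2 ratio of 0.51.

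**Figure D2:**
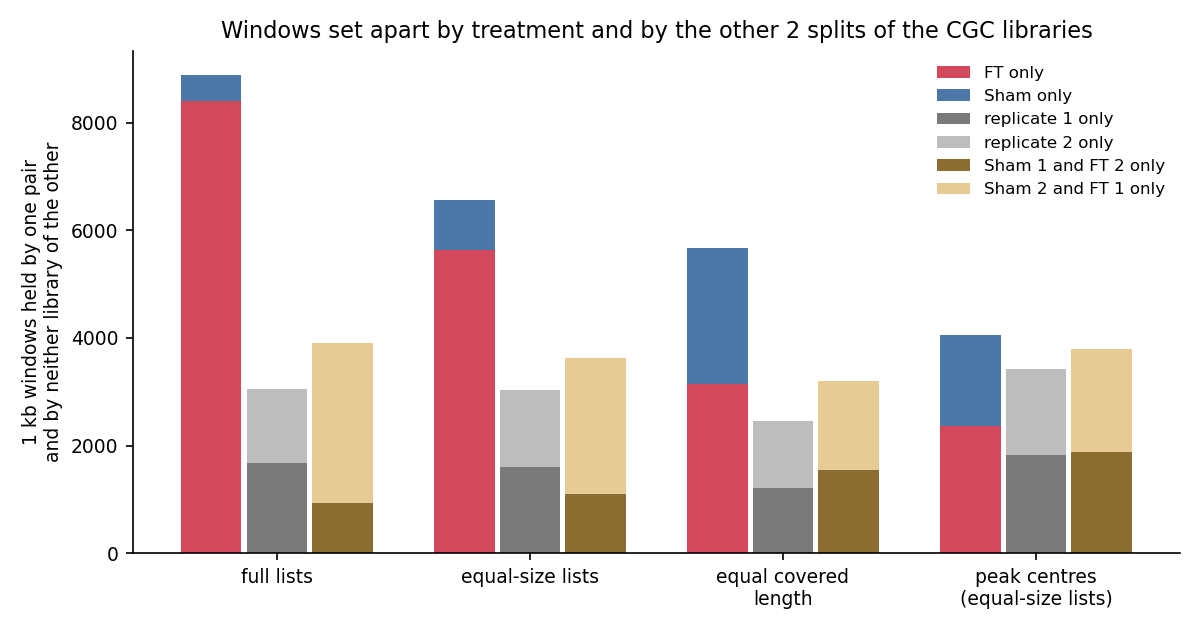
Number of 1 kb windows (y axis) held by both libraries of a pair and by neither of the other pair, for the 3 splits of the 4 CGC libraries on 4 kinds of list (x axis). The treatment bar reaches 8893 windows for full lists and 6567 for equal-size lists with most of it FT-only, 5676 at equal covered length with 3143 FT-only, and 4060 for peak centres beside 3415 and 3786 in the other splits.

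The FT libraries were the closest pair, and on equal-size lists the excess was not seen without either of them. On equal-size lists the Jaccard index was 0.747 between FT 1 and FT 2, 0.642 between Sham 1 and Sham 2, and 0.650 to 0.673 for the 4 pairs of a Sham with an FT library. The Sham libraries were thus no more alike than a Sham and an FT library were. On lists of 19378 peaks the library nearest to Sham 1 was FT 2 (0.729) and the library nearest to Sham 2 was FT 1 (0.707), whereas FT 1 and FT 2 were nearest to each other (0.783). Leaving out an FT library, so that the remaining FT library stood against the 2 Sham libraries, gave 13366 (without FT replicate 1) and 13950 windows (without FT replicate 2) on equal-size lists, and the log2 ratio to the other 2 ways of setting 1 library against 2 was 0.00 and 0.06. Without Sham replicate 1 or 2 the windows numbered 17837 and 15408, and the log2 ratio was 0.77 and 0.56. On full lists the log2 ratio was 0.29 and 0.49 without FT replicate 1 or 2. Without Sham replicate 1 or 2 it was 0.68 and 0.54, so an excess of this kind was seen in each case there. These ratios set 1 library against 2 and are not parts of the 1.36, which sets 2 against 2.

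FT-only windows lay beside places occupied in every library more often than Sham-only windows did. On equal-size lists 2373 of the 5642 FT-only windows (42.1%) adjoined a window held by all 4 libraries, against 105 of the 925 Sham-only windows (11.4%). The share was 29.6% and 32.5% on the replicate 1 and replicate 2 sides of the replicate split, and 22.1% and 42.5% on the sides of Sham 1 with FT 2 and of Sham 2 with FT 1 in the crossed split. The FT-only share was therefore as high as that of the crossed side with the wider peaks. The difference between FT-only and Sham-only shares was larger at equal covered length, with 66.4% against 3.43%, and smaller on full lists, with 28.9% against 24.1%. At equal covered length the FT lists held fewer peaks than the Sham lists, so those shares also depend on the cut. Farther out, 2161 FT-only windows (38.3%) and 580 Sham-only windows (62.7%) lay beyond 10 kb of any window held by all 4, with median distances of 6 and 18 kb.

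Many FT-only windows were weakly or partly covered in Sham rather than free of peaks. A peak of at least 1 of the full Sham lists touched 3938 FT-only windows (69.8%), and peaks of both Sham libraries touched 2488 (44.1%). The remaining 1704 (30.2%) were touched by no Sham peak. Of the Sham-only windows, 216 (23.4%) were touched by no FT peak, and on the sides of the other splits the untouched share ran from 14.7% to 19.4%. The full Sham lists held 40597 and 42094 peaks and the full FT lists 51027 and 49403. FT-only windows were thus set against shorter lists than any other class, so the untouched shares are not on equal terms. Of the 1704 untouched FT-only windows, 66.2% lay beyond 10 kb of a window held by all 4. The share was 73.6% of untouched Sham-only windows and 54.2% to 65.1% on the sides of the other splits.

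FT-only windows lay in peaks of middling Norm-tag-count. The Norm-tag-count was read as a percentile within its own full list and averaged over the 2 libraries that held the window. Its median was 46.3 for FT-only windows and 19.6 for Sham-only windows, beside 34.0 and 31.9 for the sides of the replicate split and 29.7 and 36.2 for those of the crossed one. The cut to equal size removed more of the weakest peaks from the FT lists than from the Sham lists. Low percentiles can thus be less open to FT-only windows, and these medians depend on the cut. FT-only windows above percentile 90 in both lists numbered 255 (4.52%), and Sham-only windows there numbered 16 (1.73%), while the shares on the sides of the other splits ran from 3.62% to 5.50%, so the FT-only share lay within that background. The untouched FT-only windows had a median percentile of 35.1, beside 19.6 for untouched Sham-only windows and 22.8 to 31.9 on the sides of the other splits. The median width of the peaks that held the windows was 1650 bp for FT-only and 1050 bp for Sham-only windows.

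Changed windows were mostly single. The 5642 FT-only windows formed 5243 separate stretches, of which 4847 (92.4%) were a single window and 3 reached 3 kb. The 925 Sham-only windows formed 904 stretches, of which 97.7% were a single window and none was longer than 2 kb. On the sides of the other splits 96.1% to 97.3% of the stretches were a single window, so FT-only windows adjoined each other more often. The FT-only class also held the most windows, 5642 against at most 2529 on those sides, and the part of this number was not tested. By chromosome, FT-only windows made up 4.38% (X) to 7.19% (13) of the windows occupied in any CGC library, and the FT share of changed windows ran from 82.9% (chromosome 2) to 89.8% (chromosome 10). The treatment count over that of the other splits was above 1 on all 21 chromosomes, from 1.48 on chromosome 19 to 2.29 on chromosome 6.

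The longest stretches differ from most changed windows in length, and none of the 5 longest FT-only stretches adjoined a window held by all 4. At chr3:51024001-51027000 FT 1 and FT 2 each had a peak of 2800 bp with a Norm-tag-count of 5. Sham 1 had no peak there, and Sham 2 had a peak of 900 bp with a Norm-tag-count of 4, which overlapped 338 bp of the stretch. Other regions had the mark at this place too, a median of 11 of 24 regions per window. At chr14:81647001-81650000 FT 1 and FT 2 each had a peak of 2300 bp with a Norm-tag-count of 4, and neither Sham library had a peak. Its windows were occupied in 13 to 24 other regions, so the place was without a peak in the CGC Sham lists and common elsewhere. At chr4:28224001-28227000 the FT peaks measured 2300 bp in both libraries with Norm-tag-counts of 5 and 3. Sham 1 had a peak of 300 bp with 4, and Sham 2 had a peak of 1700 bp with 3 that was too weak in maxScore to enter its equal-size list. This last stretch is thus not a place without the mark in Sham.

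The next stretches in order measured 2 kb. At chr18:78457001-78459000 peaks lay in all 4 libraries, of 800 and 700 bp in Sham and of 1400 and 1300 bp in FT, with Norm-tag-counts of 8 and 9 in Sham and 13 and 12 in FT. Here the FT peaks were wider and had the higher counts, although all 4 counts stood above percentile 92 of their own lists. At chr1:233283001-233285000 FT 1 had a peak of 1400 bp with a Norm-tag-count of 11, FT 2 had a peak of 1300 bp with 9, and no Sham peak touched either window. It lay 4 kb from a window held by all 4 and was occupied in 11 to 13 other regions, in a mean of 9.50 of the 45 Sham and 18.0 of the 45 FT libraries of those regions. Among the 5 longest FT-only stretches it was the only place with a percentile above 90 in both FT libraries (93.3 and 92.2) and no Sham peak.

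Most of the longest Sham-only stretches had an FT peak that was left out of the equal-size lists. At chr3:16069001-16071000 the Sham peaks measured 1700 and 1800 bp with a Norm-tag-count of 6 each, and FT 1 and FT 2 had peaks of 1100 and 1000 bp with higher counts, 8 and 7, whose maxScore was below the level of their equal-size lists. The same held at chr5:138485001-138487000, with counts of 5 and 4 in Sham and 5 and 4 in FT, and at chr3:88631001-88633000, with 4 and 3 in Sham and 4 and 4 in FT. At chr1:241425001-241427000 only FT 1 had such a peak, of 1300 bp with a count of 3, beside 3 and 3 in Sham. Only at chr2:73553001-73555000, among these 5, did neither FT library have a peak. Its Sham peaks measured 1300 and 1700 bp with counts of 3 and 3.

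Nearly all changed windows were active in another brain region. Of the 5642 FT-only windows, 5622 (99.65%, 95% Wilson interval 99.45 to 99.77) were occupied in at least 1 of the 90 libraries of the other 24 regions on full lists, and so were 919 of the 925 Sham-only windows (99.35%, 98.59 to 99.70). The share over all windows of any CGC library was 98.89%, and on the sides of the other splits it ran from 98.96% to 99.75%, so the shares of the changed windows were near the background. Intervals cover counting error over windows only, and neighbouring windows are not independent. In 2 or more libraries of the same other region, 97.7% of FT-only and 96.0% of Sham-only windows were occupied.

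Changed windows were active in fewer regions than shared ones. The median number of other regions was 13 for FT-only windows, 15 for Sham-only windows and 24 for windows held by all 4 CGC libraries. At least 12 other regions had the window in 53.1% of FT-only and 64.1% of Sham-only windows. The share was 72.3% over windows of any CGC library and 56.6% to 61.8% on the sides of the other splits. FT-only windows thus lay below those sides and Sham-only windows above them. All 24 regions had the window in 8.22% of FT-only and 4.32% of Sham-only windows. For any CGC library this was 36.8%, and on the sides of the other splits it was 5.29% to 8.57%. Windows of the other splits had medians of 13 to 15 regions, so the median did not set the treatment split apart. The untouched FT-only windows had a median of 9 regions. For untouched Sham-only windows it was 13, and on the sides of the other splits it ran from 11 to 15.

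**Figure D3:**
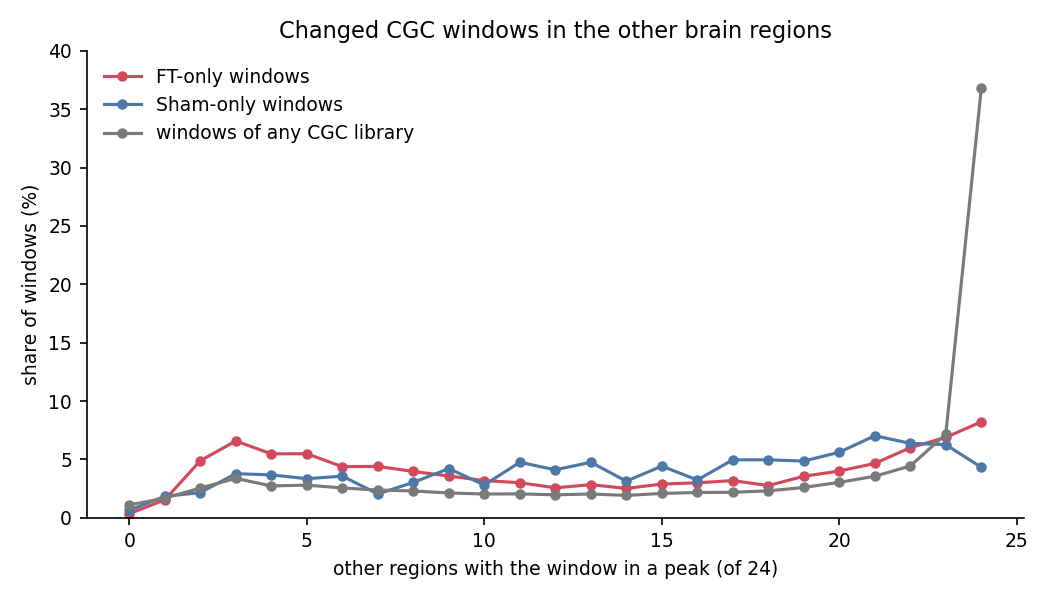
Share of windows in percent (y axis) by the number of other regions, of 24, in which the window lay in a peak of at least 1 library (x axis), for FT-only windows, Sham-only windows and windows of any CGC library. FT-only windows spread over the whole range with 0.354% at 0 and 8.22% at 24 regions, whereas 36.8% of the windows of any CGC library were occupied in all 24.

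Among single regions, FT-only windows were found most often in the insular cortex (90.5%), the prelimbic cortex (PLC, 85.9%) and the infralimbic cortex (ILC, 76.8%), the cortical regions beside CGC in the series. These shares were near or below those over all windows of any CGC library, 89.3%, 85.9% and 82.6%. The corresponding shares of Sham-only windows were 78.7%, 72.9% and 72.1%. With Sham libraries alone, FT-only windows were occupied in 81.2% in the insular cortex, 13.6% in PLC and 18.9% in ILC. On the sides of the other splits these shares were 71.1% to 80.9% in the insular cortex, 12.2% to 17.9% in PLC and 15.5% to 26.9% in ILC. The low shares in the Sham libraries of PLC and ILC were not particular to FT-only windows. Over all other regions, an FT-only window was occupied in a mean of 11.8 of 45 Sham and 19.7 of 45 FT libraries and a Sham-only window in 13.7 and 18.4. For windows of any CGC library the means were 21.8 and 28.3, so FT libraries held more windows of every kind. The Sham library of the habenula (HB) shared almost nothing with CGC (lowest Jaccard index 6.61e-04), and leaving out HB left both shares active elsewhere at 99.65% and 99.35%.

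The windows active in no other region numbered 20 among FT-only and 6 among Sham-only windows. The 3 FT-only windows among them with the highest Norm-tag-count percentiles were edges of peaks present in every CGC library. At chr3:169987001-169988000 the peaks measured 2400 and 2700 bp in Sham and 3100 and 2700 bp in FT, with Norm-tag-counts of 7 and 6 against 11 and 10. At chr3:170038001-170039000 they measured 1900 and 2000 bp against 2300 and 2300 bp, with counts of 7 and 6 against 10 and 9. At chr15:41638001-41639000 they measured 1700 and 1700 bp against 2000 and 2100 bp, with counts of 5 and 5 against 7 and 7. Each window adjoined a window held by all 4 libraries, and each had the higher count in both FT libraries. The windows were chosen by their FT values, and the mean Norm-tag-count of the lists was higher in FT, so the counts are only described. Of the Sham-only windows active nowhere else, chr2:184422001-184423000 had FT peaks too, with a count of 5 in each, that were left out of the equal-size lists. At chr6:136472001-136473000 and chr5:150428001-150429000 no FT peak was found, and the Sham counts were 4 and 3, and 3 and 3.

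Peaks were then matched between libraries. Overlapping peaks of the 4 lists were merged into elements, each counted once. On full lists there were 60973 elements, of which 32288 (53.0%) had a peak in all 4 libraries, 4349 in both FT libraries only and 349 in both Sham libraries only. On equal-size lists there were 52850, of which 30295 (57.3%) had a peak in all 4, 1417 in FT only and 1028 in Sham only, while the replicate split separated 1628 and the crossed split 1805. The treatment split of elements was thus above the mean of the other splits (log2 0.51), less so than for windows, and 58.0% of its elements were on the FT side. Of the 5642 FT-only windows, 2767 (49.0%) lay in an element with a peak in all 4 libraries, 1264 (22.4%) in an element with a peak in 1 Sham library, and 1611 (28.6%) in an element without a Sham peak on these lists. Of the Sham-only windows 13.7% lay in an element with a peak in all 4, and on the sides of the other splits 26.2% to 49.4% did, the highest again for Sham 2 and FT 1.

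At elements found in all 4 libraries, width separated the treatments. On equal-size lists the median width at these elements was 1600 and 1700 bp in Sham and 2000 and 1900 bp in FT, and the median log2 ratio of FT to Sham width was 0.15 (quartiles 0.07 and 0.29). Both FT widths exceeded both Sham widths at 14261 elements (47.1%), and both Sham widths exceeded both FT widths at 164 (0.541%). By replicate number the corresponding shares were 4.21% and 3.29%, and crosswise 15.3% were wider in Sham 2 and FT 1 and 1.52% in Sham 1 and FT 2. The full lists gave the same median of 0.15, with 45.5% wider in FT and 0.849% wider in Sham, beside 4.69% and 3.84% in the replicate split and 15.9% and 1.71% for the sides of the crossed split in the order above. The elements share their libraries, so 47.1% is a description of 4 libraries and not a count of independent events. Elements with peaks in all 4 libraries also omit peaks lost from any of them. The median −log10 p of the full lists was higher in FT, 12.7 and 12.3 against 11.1 and 10.1 in Sham. Depth is unknown, and its part in the difference in width was not tested.

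The median log2 ratio of FT to Sham width was larger at weak elements than at strong ones. Ordered by score and divided into 5 groups of 6059, the elements had median log2 ratios of 0.07, 0.12, 0.17, 0.25 and 0.32 from strongest to weakest. The ratio of Sham 1 and FT 2 to Sham 2 and FT 1 was -0.06, -0.05, -0.05, -0.08 and -0.12. The crossed split thus also differed most in the weakest group. By replicate number the median was 0.00 in every group. In the strongest group, median width was 2100 and 2200 bp in Sham and 2300 and 2200 bp in FT, and in the weakest it was 1100 and 1200 bp against 1500 and 1400 bp. Elements wider in both FT libraries made up 36.3% of the strongest group and 47.7%, 51.0%, 51.0% and 49.3% of the others in that order. Widths are multiples of 100 bp, so that a strong element of 2 kb cannot show a difference below that step.

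**Figure D4:**
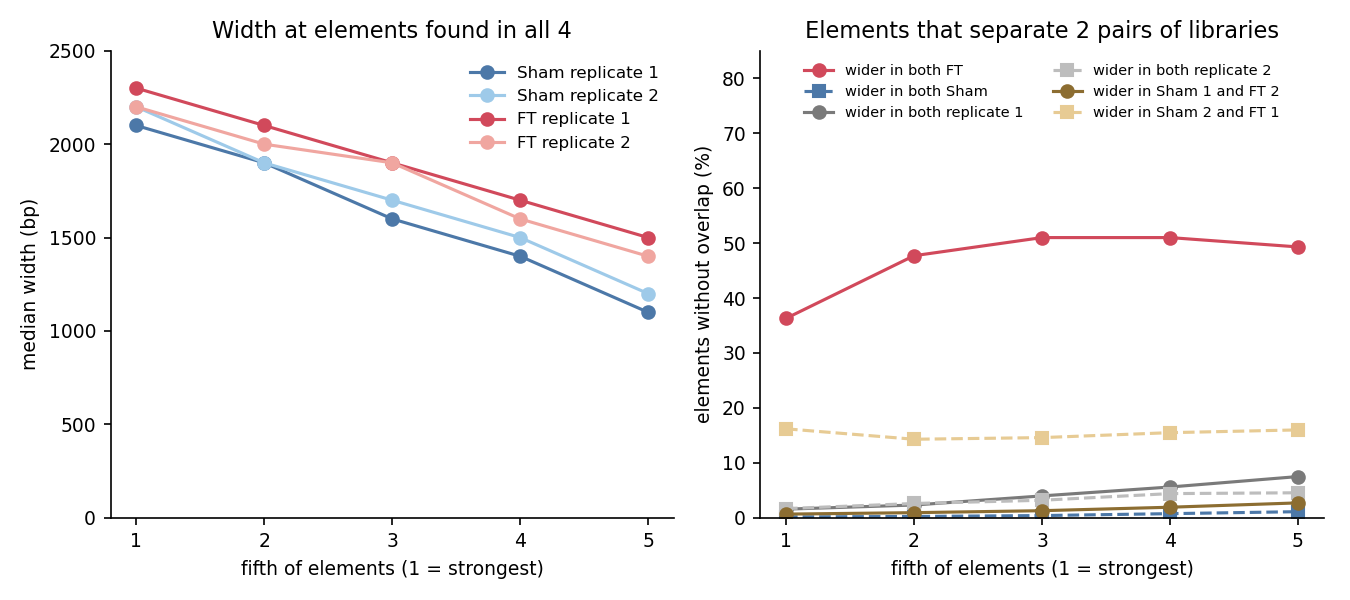
At elements with a peak in all 4 CGC libraries (equal-size lists), median width in bp per library (left) and the share of elements in percent at which the 2 pairs of a split did not overlap in width (right), for 5 groups of 6059 elements from strongest to weakest (x axes). The share wider in both FT libraries runs from 36.3% to 51.0%, that wider in Sham 2 and FT 1 stays between 14.3% and 16.2%, and the other 4 stay at or below 7.51%.

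The rank of the Norm-tag-count at these elements did not differ detectably between the treatments. In the limma test on quantile-normalised log2 (Norm-tag-count + 1), a scale on which only the rank within a library counts, 0 of 32288 elements passed at a Benjamini-Hochberg adjusted p of 0.05 (0%). The lowest adjusted p was 0.256. At an unadjusted p under 0.05 there were 2988 elements (9.25%), 2245 of them with the larger value in FT and 743 in Sham. With maxScore in place of the Norm-tag-count, 0 passed and 2149 (6.66%) had an unadjusted p under 0.05, 1084 higher in FT and 1065 in Sham, so the lean to FT was not seen on that score. With median scaling in place of quantile normalisation 2531 elements passed, 345 up and 2186 down in FT, so the number of calls and their direction depended on the scaling.

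The elements with the lowest p illustrate how coarse these values are. At chr15:48576817-48579101 the Norm-tag-count was 8 and 7 in Sham and 14 and 12 in FT, a log2 difference of 0.33 after normalisation (SE 0.02, limma adjusted p = 0.256). The next 4 in that direction, chr1:79307202-79309532, chr4:234102193-234105255, chr5:174196482-174198181 and chr12:33430326-33432625, held the same set of values, 5 and 5 in Sham and 10 and 8 in FT, with a log2 difference of 0.35 (SE 0.03). All of these 5 were higher in both FT libraries as deposited, and on maxScore too their log2 differences were above 0, from 0.46 to 0.81, with adjusted p from 0.737 to 0.764 in limma.

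The 5 elements leading the other direction were not lower in FT in their deposited Norm-tag-counts. At chr19:62780572-62782701 the deposited values were 8 and 7 in Sham and 8 and 7 in FT, and the log2 difference of -0.38 (SE 0.02, limma adjusted p = 0.256) arose because quantile normalisation ranks a value within its own list, and the mean Norm-tag-count of the lists was 4.71 and 4.37 in Sham and 5.88 and 5.08 in FT. At chr8:98245100-98247565 the values were 9 and 8 in both treatments. At chr8:48933966-48936965, chr14:48890416-48892912 and chr16:21351900-21354130 they were 11 and 10 in Sham and 13 and 11 in FT. In none of the 5 were both deposited Sham values above both FT values. On maxScore after the same normalisation their log2 differences were below 0 too, from -0.14 to -1.25, with limma adjusted p from 0.737 to 0.927.

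Against the 21 regions with 2 libraries per treatment, CGC stood in the middle. Its log2 ratio of peak number (0.28) ranked 11th, between -0.10 in venDG and 1.07 in PLC, with a median of 0.28. Its treatment split on equal-size lists (log2 0.98) ranked 12th, between -0.48 in venDG and 3.15 in PLC. By peak centres CGC (0.17) ranked 17th, with a median of 0.61 over the regions. Its median log2 width ratio at shared elements (0.15) equalled the median of the regions, and its share of elements wider in FT (47.1%) ranked 8th between 2.37% in venDG and 94.8% in PLC. The insular cortex, the region most like CGC in its windows, had a log2 split of -0.03 on equal-size lists and a median width ratio of 0.00, with 9.79% of elements wider in FT and 7.35% wider in Sham. The difference between CGC and the insular cortex was not tested.

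**Figure D5:**
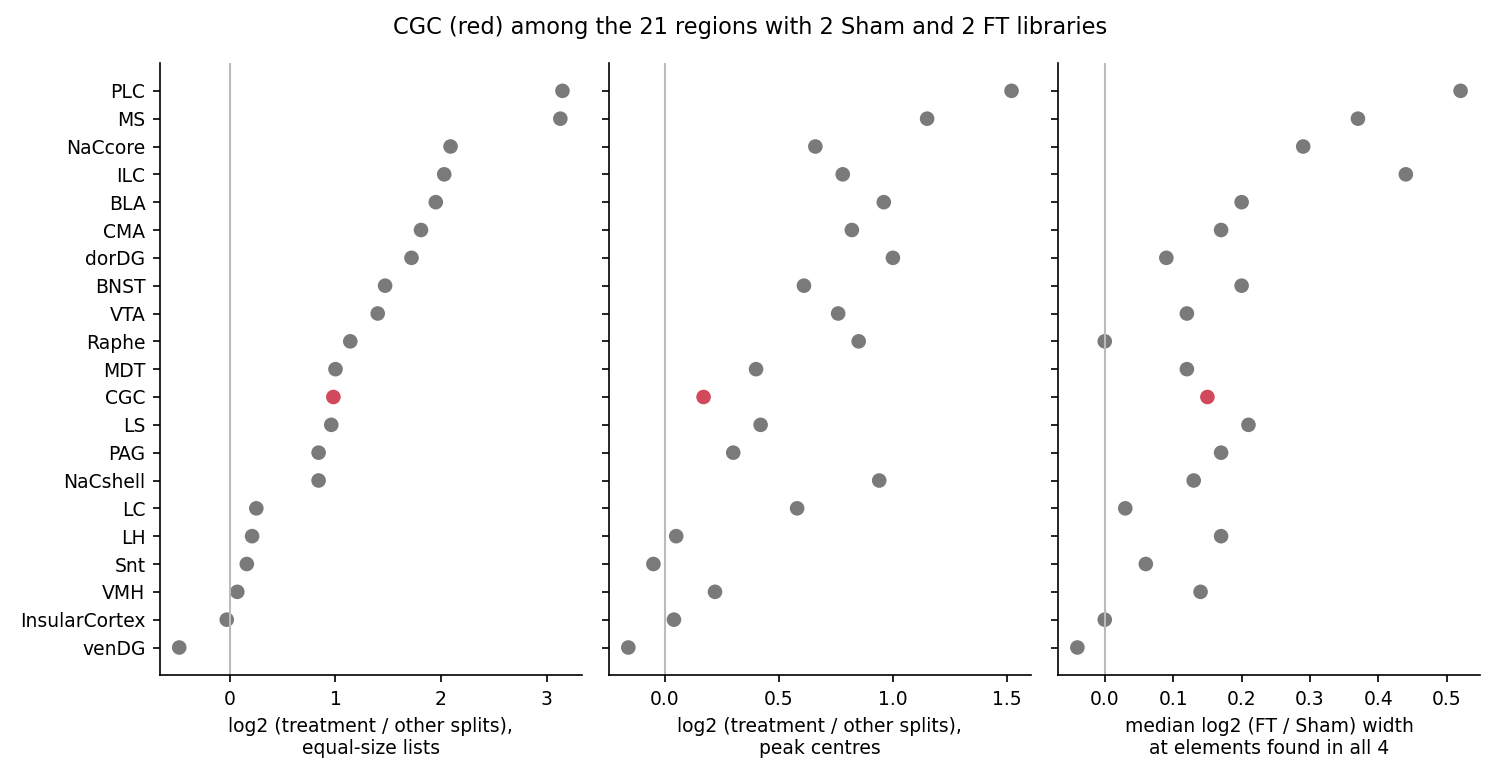
The 21 regions with 2 Sham and 2 FT libraries (y axis), ordered by the log2 ratio of windows separating the treatments to the mean over the other splits, on equal-size lists (left), with the same ratio for peak centres (middle) and the median log2 ratio of FT to Sham width at elements found in all 4 libraries (right). CGC, in red, has 0.98, 0.17 and 0.15, between venDG at -0.48, -0.16 and -0.04 and PLC at 3.15, 1.52 and 0.52.

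Changed windows of CGC were then looked up in the treatment splits of the other regions. Of the 5642 FT-only windows, 2907 (51.5%) were FT-only in at least 1 of the other 20 regions, each on its own equal-size lists, and 620 were Sham-only in at least 1. Of the 925 Sham-only windows, 277 (29.9%) were Sham-only and 238 (25.7%) were FT-only elsewhere. Of the 6672 windows that separated the CGC libraries by replicate number or crosswise, 2874 (43.1%) were FT-only and 1140 (17.1%) were Sham-only in at least 1 other region, and these are the backgrounds for such shares. PLC shared the most, 845 windows, which were 15.0% of the FT-only windows of CGC and 8.40% of those of PLC. Of the same 6672 windows 7.87% were FT-only in PLC, the background for the 15.0%. In ILC the figures were 9.45% of the FT-only windows of CGC beside a background of 5.95%, and in the medial septum (MS) 10.9% beside 9.86%. In the insular cortex 159 FT-only windows of CGC (2.82%) were FT-only and 134 (2.38%) were Sham-only, beside backgrounds of 3.09% and 2.77%. Regions of the same replicate came from the same animals, so these overlaps are not independent of the pools, and the part of the pools in them was not tested.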

How the data were processed

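H3K27ac ChIP-seq peak lists of 94 libraries were used, 4 of them from CGC. The authors aligned reads to Rn5 and ran the peak caller DFilter library by library, without pooling. The submitters' processing notes name BWA, and the sources used here state no versions. The deposited lists give a −log10 p-value and an FDR in percent for each peak, and maxScore and Norm-tag-count, which were treated as scores and used for rank. The deposited FDR was 0 for every peak and was not used. In the deposited lists, peak start and end were read as positions counting from 0, and are printed counting from 1. The lists hold no read counts, so the study's test on counts per peak could not be run and depth is unknown. An Rn5 annotation was not used here, so no genes are named. In other regions 1019 peaks on unplaced contigs (of 4001711 in all) were left out. The 4 input samples were not analysed here.

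Windows of 1 kb were counted as occupied at 50% cover. Equal-size lists held the 40597 best peaks by maxScore. Elements were merged overlapping peaks, with the highest Norm-tag-count of a library and its covered width. limma 3.58.1 in R 4.3.3 tested log2 (value + 1) after quantile normalisation. All other steps used Python 3.11.15 with numpy 2.4.6, pandas 2.3.3 and scipy 1.17.1. Scripts were tested on simulated data. The replicate numbers come from the titles, and the study's methods state that Sham and FT samples of a replicate were processed in parallel. The correlation of the replicate differences between the treatments was -0.04 for Norm-tag-count and -0.07 for maxScore. Places were named by rule: the 5 longest FT-only and Sham-only stretches (ties by Norm-tag-count percentile), the 3 windows of each class active in no other region with the highest percentile, and the 5 elements with the lowest limma p in each direction. The windows, lists and tests were chosen with earlier results of these data known. Alternatives covered window size and cover, list length, score, scaling, the replicate block and each library left out.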

Additional observations from a re-analysis of the deposited data

How the results depend on the processing

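Over the alternatives tried, FT remained above Sham in peak number, covered length and width. Restricted to peaks with a −log10 p of at least 6, the log2 ratio was 0.36 for peak number and 0.08 for median width, and median width gave 0.27 on equal-size lists. Leaving out each library in turn gave 0.25 to 0.31 for peak number, 0.31 to 0.43 for covered length, 0.09 to 0.19 for median width and 0.11 to 0.18 for width at shared elements.

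Windows of the treatment split on full lists numbered 530 with 5 kb windows, 13565 with any cover and 4258 with full cover. On equal-size lists they numbered 525 with 5 kb windows, 4077 with full cover, 1481 among the 10000 best peaks and 4060 by peak centres, and 2445 when elements replaced windows, an alternative chosen after seeing the data. The cause was not tested for these, beyond the size of the unit counted. Leaving out a library asks less of a window, and the counts were 16725 to 19990 on full lists and 13366 to 17837 on equal-size lists. On equal-size lists the excess over the replicate and crossed splits, log2 0.98 as reported, was 2.50 with 5 kb windows (525 against 50 and 136) and 0.47 among the 10000 best peaks (1481 against 895 and 1244). FT-only windows were the larger side in every one of these settings, from 55.4% of the treatment split at equal covered length to 98.9% with 5 kb windows on full lists. With an FT library left out, an FT-only window needed 1 library and a Sham-only window 2, which favours the FT side. The FT shares were then 81.2% and 87.7% on equal-size lists. With a Sham library left out the demand was the reverse, and they were 62.0% and 73.1%.

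The share of FT-only windows next to shared ones was 28.9% on full lists and 66.4% at equal covered length. The share active elsewhere was 99.37% for windows from full lists, 96.33% with Sham libraries alone and 97.66% with 2 libraries of the same region required.

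With the replicate number as a block, limma passed 0 elements (2403 at an unadjusted p under 0.05), and the paired count of windows was 6567, the same as without pairing by construction. The block changed no other call. With median scaling limma passed 2531 of 32288 elements. Leaving out each library in turn gave 0 to 7486 calls on Norm-tag-count: 7371 without Sham replicate 1, 7486 without Sham replicate 2, 0 without FT replicate 1 and 4111 without FT replicate 2. The remaining pair held equal whole numbers at 22.4% (FT pair) or 54.0% (Sham pair) of elements. On maxScore, where 0.00619% were equal, the same 4 fits passed 0, an alternative chosen after seeing the data. The cause of the calls was not tested. Of the 10 named elements, none changed direction under any of 12 alternatives. They were chosen by their p in the same 4 libraries that the alternatives use, so a stable direction was favoured in advance. Of the 8 named FT-only places, 7 were kept whole on full lists and 5 at equal covered length, and of the 8 Sham-only places 3 and 7. Full lists add more FT than Sham peaks, and at equal covered length the FT lists held fewer peaks. These counts are therefore not on equal terms. With the lists cut by Norm-tag-count 7 and 4 were kept whole, and among the 10000 best peaks 2 and 0.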
